A study of Mus musculus with 71 samples.

Results

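The neuropeptide genes Nts, Vip, Cck, Sst, Npy, Penk, Pdyn, Tac1 and Cort encode peptides made by forebrain neurons. They were followed in the brain RNA of mice kept awake and of undisturbed mice. Every probe set whose platform symbol is one of these 9 genes was taken. All 9 genes were found, on 10 of the 45037 probe sets tested, out of 18193 named genes; Tac1 had 2 probe sets and the other 8 genes 1 each.

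The animals were male AKR/J, C57BL/6J and DBA/2J mice, inbred strains without added alleles, aged 12 to 13 weeks. In each strain, mice sleep-deprived for 6 h up to sacrifice were set against home-cage controls at 4 times of sacrifice, given as zeitgeber time (ZT, hours after light onset, with dark onset at ZT12). Sacrifice at ZT6 or ZT12 followed deprivation in the light phase, and sacrifice at ZT18 or ZT0 followed deprivation in the dark phase. These 24 groups were measured on 71 one-colour Affymetrix arrays, 35 from sleep-deprived mice and 36 from controls, each array with whole-brain RNA pooled from 3 mice. A group had 3 arrays, except AKR/J sleep-deprived for sacrifice at ZT18 with 2, so p-values measure the spread between pools.

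Neuropeptides are cut from larger precursors inside dense-core vesicles, released during sustained or high-frequency firing, and bind mostly G protein-coupled receptors over longer distances and times than classical transmitters. Because the released peptide is degraded rather than taken up again, stores are refilled by new synthesis from the messenger RNA. In the forebrain, Vip, Sst, Npy, Cort and Cck mark classes of GABAergic interneurons (Cck also excitatory cells of cortex and hippocampus), Penk and the Tac1 and Pdyn pair mark the 2 output classes of the striatum, and Nts is made in the lateral hypothalamus, preoptic area, amygdala and striatum. Whole-brain RNA does not show which of these cells a signal came from, and fewer cells of a type and less RNA per cell cannot be told apart.

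The proximal promoters of the 4 genes that were higher after sleep deprivation, and that of Sst for its complete cAMP response element, are shown here because this class of precursor genes is known for cAMP- and activity-dependent transcription. Each sequence holds 250 bases before and 50 bases from the RefSeq start site on the gene's strand (GRCm38.p6), with the searched motifs in capitals: TGACGTCA (the cAMP response element), TGACG (its half-site), TGAGTCA (the AP-1 site) and TGCGTCA (the element type known from the enkephalin gene).
Nts, chr10:102490369-102490668, minus strand: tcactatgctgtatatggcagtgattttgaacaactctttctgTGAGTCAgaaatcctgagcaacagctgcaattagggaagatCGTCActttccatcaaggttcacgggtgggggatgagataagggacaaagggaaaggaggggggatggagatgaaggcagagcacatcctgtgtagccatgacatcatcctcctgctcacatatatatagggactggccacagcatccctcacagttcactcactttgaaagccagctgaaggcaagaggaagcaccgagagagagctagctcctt
Vip, chr10:5638968-5639267, plus strand: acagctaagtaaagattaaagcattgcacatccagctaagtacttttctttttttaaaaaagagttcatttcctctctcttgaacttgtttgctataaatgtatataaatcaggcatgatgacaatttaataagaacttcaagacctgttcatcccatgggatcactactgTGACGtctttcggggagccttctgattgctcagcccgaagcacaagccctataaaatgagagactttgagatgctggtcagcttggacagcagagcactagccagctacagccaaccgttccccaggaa
Cck, chr9:121495645-121495944, minus strand: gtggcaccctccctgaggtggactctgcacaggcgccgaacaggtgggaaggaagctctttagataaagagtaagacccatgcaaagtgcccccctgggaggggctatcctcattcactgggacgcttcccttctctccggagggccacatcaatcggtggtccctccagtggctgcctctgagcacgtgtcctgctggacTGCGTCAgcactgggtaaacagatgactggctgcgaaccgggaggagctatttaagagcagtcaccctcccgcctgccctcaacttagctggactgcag
Tac1, chr6:7554811-7555110, plus strand: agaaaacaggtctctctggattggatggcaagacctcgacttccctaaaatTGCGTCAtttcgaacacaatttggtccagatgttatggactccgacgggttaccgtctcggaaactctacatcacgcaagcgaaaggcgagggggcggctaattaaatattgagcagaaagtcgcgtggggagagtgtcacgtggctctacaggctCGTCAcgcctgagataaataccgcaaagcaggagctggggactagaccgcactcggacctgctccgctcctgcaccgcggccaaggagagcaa
Sst, chr16:23890795-23891094, minus strand: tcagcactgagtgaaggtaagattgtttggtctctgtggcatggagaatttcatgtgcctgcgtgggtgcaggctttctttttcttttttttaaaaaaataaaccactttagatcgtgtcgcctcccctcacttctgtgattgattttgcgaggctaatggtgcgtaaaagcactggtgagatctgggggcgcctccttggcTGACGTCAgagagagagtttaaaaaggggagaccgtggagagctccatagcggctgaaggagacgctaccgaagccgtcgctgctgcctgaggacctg

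Both strands were searched, and a half-site on the other strand reads CGTCA here. Each full cAMP response element contains half-sites on both strands, and each TGCGTCA contains a half-site on the other strand, so these matches overlap. Of 32851 mouse promoters of the same length, 1.79% held TGACGTCA, 20.8% TGACG, 5.2% TGAGTCA and 2.12% TGCGTCA. The Nts window held TGAGTCA at -207 to -201 from the start site and a half-site on the other strand at -166 to -162. The Vip window held a single half-site at -79 to -75. The Cck window held TGCGTCA at -49 to -43, and the Tac1 window held TGCGTCA at -199 to -193 and a separate half-site at -43 to -39. The Sst window held TGACGTCA at -48 to -41, and the window of Cort, which encodes the related peptide cortistatin, held TGCGTCA at -20 to -14. None of these letters occurred in the windows of Npy or in either window listed for Pdyn. RefSeq promoters were matched for 8 of the 9 genes; Penk was the other. A match is a run of letters, not a measured binding site, and a part of these motifs in the response to sleep deprivation was not tested.

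Sleep deprivation was accompanied by higher Nts and Vip signals in all 3 strains, and by smaller increases of Cck and Tac1. Averaged over the 12 differences within strain and time, Nts was 1.26-fold higher, Vip 1.15-fold, Cck 1.06-fold and Tac1 1.05-fold. Sst, Npy, Penk, Pdyn and Cort did not pass the test. In all, 4 of the 10 probe sets were higher and 0 lower at a Benjamini-Hochberg adjusted p under 0.05 in limma, against 8.31% of all probe sets called higher. The members were chosen with earlier results of these data known, so this count is a description and not an independent test against that share.

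**Figure D1:**
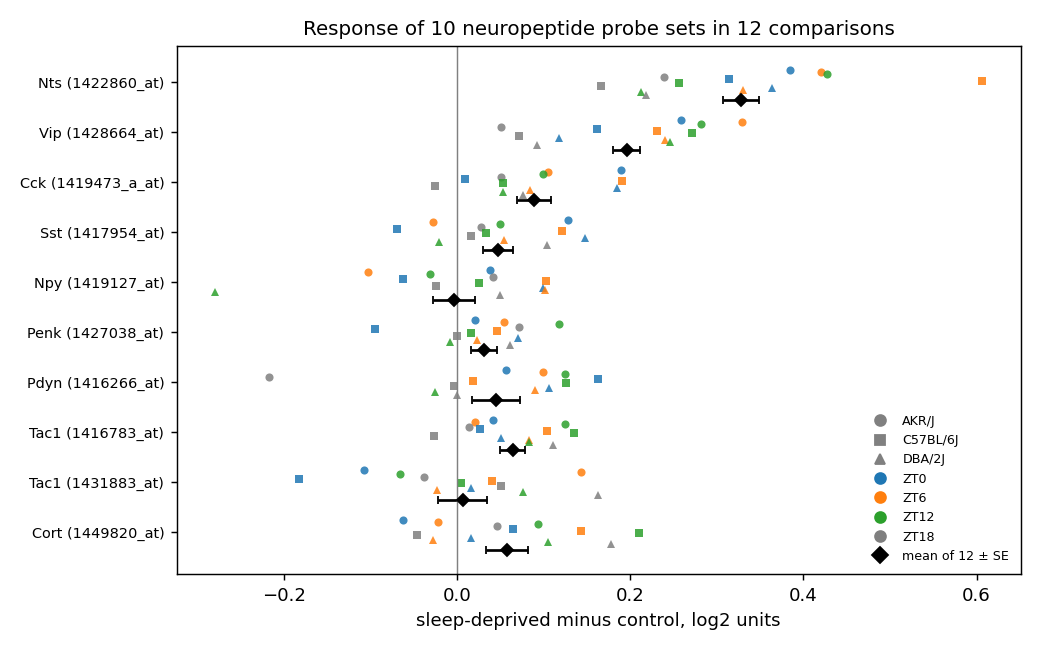
Differences in log2 signal, sleep-deprived minus control, for the 10 probe sets (rows) in the 12 strain-by-time comparisons (symbols mark strain, colours time of sacrifice), with the mean of 12 as a black diamond ± SE. All 12 Nts and all 12 Vip points lie above 0, whereas those of Npy lie on both sides, with 1 point at -0.28.

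Nts encodes the precursor of neurotensin and neuromedin N, peptides known for modulating dopamine signalling, body temperature and arousal. Over the 35 sleep-deprived arrays, the Nts signal (probe set 1422860_at, log2 scale throughout) had a lowest value of 7.29, a median of 7.53 and a highest of 7.93, against 6.97, 7.21 and 7.43 over the 36 control arrays. The pooled distributions overlapped at their edges. Within every strain and time, however, all sleep-deprived arrays lay above all control arrays. Only 0.0355% of all probe sets, 16 in number, were separated in this way in all 12 comparisons. The group means also separated completely: the 12 highest of the 24 were the 12 sleep-deprived groups.

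In AKR/J mice, the sleep-deprived pools gave Nts values of 7.54, 7.69 and 7.50 at ZT0, against 7.18, 7.25 and 7.16 in controls. At ZT6 they gave 7.56, 7.60 and 7.52, against 7.08, 7.21 and 7.13 in controls. At ZT12 they gave 7.50, 7.39 and 7.52, against 7.13, 6.97 and 7.03 in controls. AKR/J controls at ZT12 had the lowest Nts mean of the 24 groups, 7.04 ± 0.08 (SD, n = 3). At ZT18 the 2 sleep-deprived AKR/J pools read 7.35 and 7.45 and the 3 control pools 7.05, 7.23 and 7.20. Across the 4 times, no sleep-deprived AKR/J array, from 7.35 upward, was as low as the highest AKR/J control, at 7.25.

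In C57BL/6J mice, the ZT0 pools read 7.48, 7.63 and 7.66 after deprivation and 7.35, 7.25 and 7.24 without. The ZT6 pools read 7.70, 7.67 and 7.93 after deprivation, against 7.19, 7.20 and 7.09 in controls. Sleep-deprived C57BL/6J at ZT6 had the highest Nts mean of the 24 groups, 7.77 ± 0.14 (SD, n = 3), and the difference from its controls, 0.61 ± 0.07 log2 units (SE), was the largest of the 12. Of its 3 sleep-deprived arrays, the 2 at 7.70 and 7.93 belonged to 6 arrays of the series that stood apart in their spike-in controls. Without those 6, a single sleep-deprived array was left and the difference was 0.51 (limma adjusted p = 0.00339, with the spread taken from the other groups and the lone array assumed to vary like them). At ZT12 the C57BL/6J values were 7.52, 7.60 and 7.49 in sleep-deprived pools and 7.30, 7.35 and 7.20 in control pools. At ZT18 they were 7.37, 7.41 and 7.29 in sleep-deprived pools and 7.17, 7.19 and 7.21 in control pools, the smallest of the 12 differences at 0.17. These ZT18 groups did not overlap, but their difference did not pass the test (adjusted p = 0.769).

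In DBA/2J mice, sleep-deprived pools had Nts values of 7.68, 7.73 and 7.60 at ZT0, against 7.37, 7.23 and 7.33 in controls. The ZT6 values were 7.74, 7.74 and 7.53 in sleep-deprived pools and 7.43, 7.38 and 7.21 in control pools. The ZT12 values were 7.60, 7.41 and 7.32 in sleep-deprived pools and 7.24, 7.21 and 7.25 in control pools. The 3 sleep-deprived pools at ZT12 were spread widely, from just above the controls to well above them. The ZT18 values were 7.41, 7.56 and 7.45 in sleep-deprived pools and 7.25, 7.30 and 7.21 in control pools. Again no pair of groups overlapped.

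**Figure D2:**
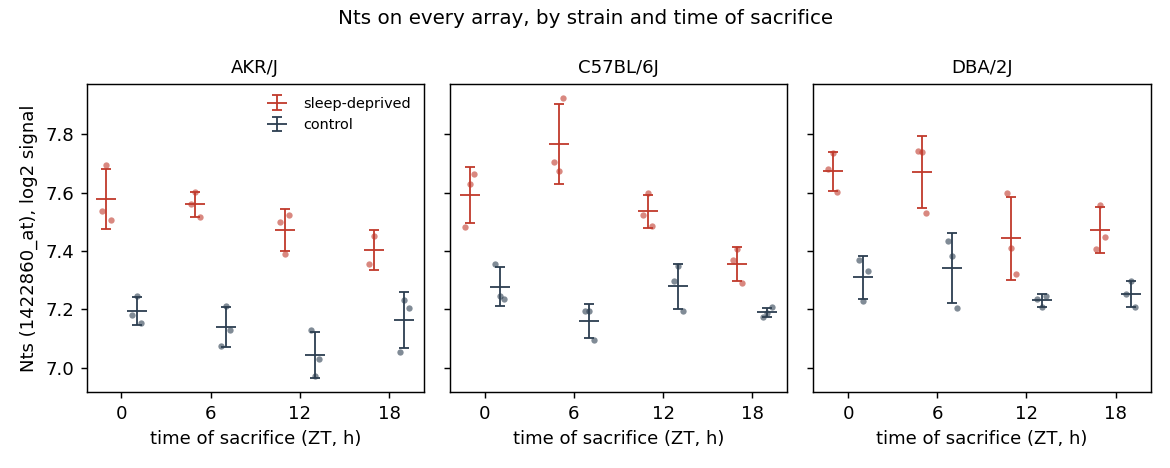
Nts log2 signal (probe set 1422860_at) on each array (points), with the group mean and SD (bars), by time of sacrifice in each strain; sleep-deprived groups in red, left, and controls in dark blue. In each of the 12 pairs every red point lies above every blue point, with the widest gap in C57BL/6J at ZT6.

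Taken as 1 test over all strains and times, the Nts mean was 7.54 in sleep-deprived and 7.22 in control groups, a difference of 0.33 ± 0.02 log2 units (SE; 1.26-fold, 95% confidence interval 1.22 to 1.29; limma adjusted p = 2.56e-19). Tested comparison by comparison, Nts was called higher in 8 of 12, against 0.887% of all probe sets and comparisons, and missed the threshold at ZT18 in the 3 strains and at ZT12 in DBA/2J. The Nts difference was 0.37 within AKR/J, 0.34 within C57BL/6J and 0.28 within DBA/2J, with adjusted p of 3.92e-11, 2.79e-10 and 3.29e-08 in that order. For Vip it was 0.23 within AKR/J, 0.18 within C57BL/6J and 0.17 within DBA/2J, with adjusted p of 1.5e-08, 1.73e-06 and 4.7e-06. In the AKR/J, C57BL/6J and DBA/2J tests 3.4%, 3.27% and 3.27% of all probe sets were called higher, and of the members 3 (Nts, Vip, Cck), 2 (Nts, Vip) and 3 (Nts, Vip, Tac1). A test of strain by sleep deprivation called 0 of the 10 probe sets (adjusted p from 0.74 to 0.984, 0 under an unadjusted p of 0.05), against 0.0222% of all probe sets, which does not show that the strains responded alike.

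By time of sacrifice, the Nts difference was 0.35 at ZT0 (adjusted p = 1.94e-08), 0.45 at ZT6 (8.31e-13), 0.30 at ZT12 (1.66e-07) and 0.21 at ZT18 (0.0192). Called higher at these times were 2, 3, 3 and 1 of the members, against 1.26%, 5.13%, 4.71% and 0.06% of all probe sets. The test of time by sleep deprivation did not call Nts (adjusted p = 0.0701), and the call at ZT18 was lost with a hypothalamic marker score as covariate (0.18; adjusted p = 0.108) and when any 1 of 7 arrays was left out. Within the sleep-deprived mice the Nts level itself differed with time of day (F test, adjusted p = 6.26e-05): means over strains were 7.61 at ZT0, 7.67 at ZT6, 7.48 at ZT12 and 7.41 at ZT18. It was the 1 member called in that test, which called 1.42% of all probe sets. Control means were 7.26, 7.21, 7.18 and 7.20 at the same times, and this range of 0.08 was not called (adjusted p = 0.566).

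Vip encodes vasoactive intestinal peptide, made by cortical interneurons that inhibit other interneurons and by cells of the suprachiasmatic nucleus, where it keeps clock neurons in step. Over the 35 sleep-deprived arrays the Vip signal (1428664_at) had a lowest value of 8.94, a median of 9.13 and a highest of 9.39, against 8.74, 8.95 and 9.23 over the 36 control arrays. The difference over the 12 comparisons was 0.20 ± 0.02 log2 units (SE; 1.15-fold, 95% confidence interval 1.12 to 1.17; adjusted p = 3.86e-15), with means of 9.15 in sleep-deprived and 8.96 in control groups. Vip was higher on average in 12 of 12 comparisons, as were 1.46% of all probe sets. Its arrays did not overlap in 9 of 12, against 8.18% of all probe sets and comparisons, and the 3 with overlap were those at ZT18.

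At ZT6, the AKR/J pools had Vip values of 9.15, 9.19 and 9.09 after deprivation, against 8.86, 8.85 and 8.74 in controls. The C57BL/6J pools had 9.09, 9.11 and 8.94 after deprivation, against 8.81, 8.82 and 8.82 in controls. The DBA/2J pools had 9.35, 9.39 and 9.36 after deprivation, against 9.03, 9.17 and 9.16 in controls. DBA/2J stood above the other strains in both conditions, and its sleep-deprived ZT6 group had the highest Vip mean of the 24, 9.36 ± 0.02 (SD, n = 3).

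At ZT12, sleep-deprived AKR/J pools had Vip values of 9.12, 9.13 and 9.00, against 8.82, 8.81 and 8.78 in controls. Sleep-deprived C57BL/6J pools had 9.06, 9.05 and 9.16, against 8.83, 8.89 and 8.74 in controls. Sleep-deprived DBA/2J pools had 9.34, 9.29 and 9.21, against 9.08, 8.99 and 9.04 in controls. As at ZT6, each strain's arrays were fully separated, and all 6 of these light-phase comparisons were called.

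After deprivation in the dark phase the Vip separation was narrower. For sacrifice at ZT18, AKR/J read 9.01 and 9.05 in sleep-deprived and 9.00, 8.91 and 9.03 in control pools. C57BL/6J read 9.00, 8.97 and 9.08 in sleep-deprived and 8.96, 9.01 and 8.85 in control pools. DBA/2J read 9.23, 9.10 and 9.20 in sleep-deprived and 9.03, 9.14 and 9.07 in control pools. In each strain the sleep-deprived and control arrays overlapped. For sacrifice at ZT0, AKR/J read 9.14, 9.27 and 9.20 in sleep-deprived and 8.94, 8.97 and 8.92 in control pools. C57BL/6J read 9.13, 9.10 and 9.06 in sleep-deprived and 8.91, 8.96 and 8.93 in control pools. DBA/2J read 9.35, 9.30 and 9.30 in sleep-deprived and 9.17, 9.23 and 9.20 in control pools. Here the groups were separated again, though the AKR/J difference alone was called; Vip was thus called in 7 of 12.

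**Figure D3:**
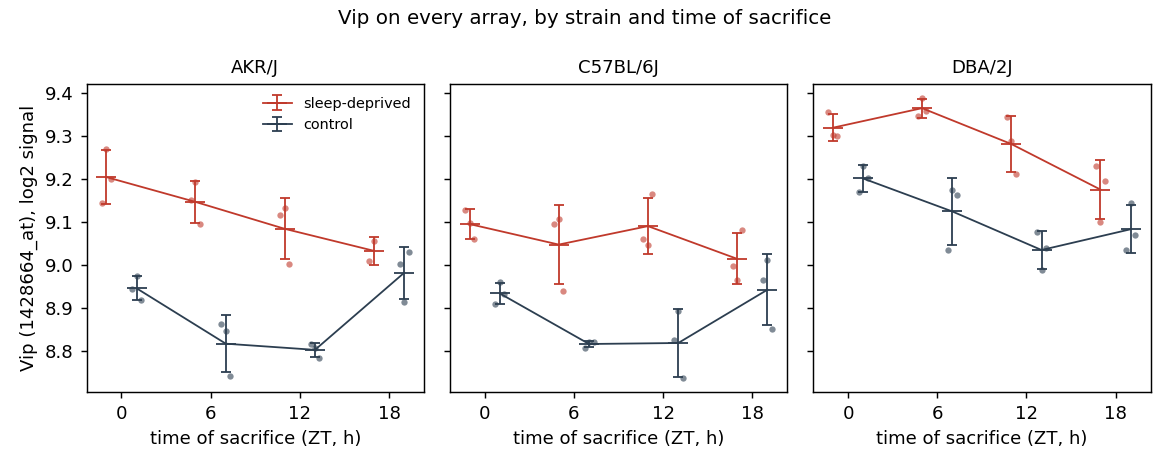
Vip log2 signal (probe set 1428664_at) on each array (points), with group means ± SD joined by lines, by time of sacrifice in each strain; sleep-deprived groups in red, left, and controls in dark blue. The lines lie furthest apart at ZT6 and ZT12 and approach each other at ZT18, and DBA/2J runs above the other strains.

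The Vip response depended on the time of deprivation (time by sleep deprivation F test, adjusted p = 0.0137). It was the 1 member called, against 1.4% of all probe sets. The difference was 0.18 at ZT0 (adjusted p = 0.000158), 0.27 at ZT6 (2.81e-09), 0.27 at ZT12 (2.82e-09) and 0.07 at ZT18 (0.811). The mean response to light-phase deprivation (ZT6 and ZT12) exceeded that to dark-phase deprivation (ZT18 and ZT0) by 0.14 ± 0.03 log2 units (SE; 95% confidence interval 0.08 to 0.20; adjusted p = 0.00394), the 1 call among the members against 1.51% of all probe sets called in this direction. The same contrast for Nts was 0.09 ± 0.04 (adjusted p = 0.237).

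Undisturbed mice also showed a daily course of Vip, the 1 member called for time of day in controls (F test, adjusted p = 0.00111), where 11.7% of all probe sets were called. Control means over strains were 9.03 at ZT0, 8.92 at ZT6, 8.88 at ZT12 and 9.00 at ZT18, so that Vip was lowest at ZT12. Sleep-deprived means were 9.21, 9.19, 9.15 and 9.07 at the same times and were not called for time of day (adjusted p = 0.0583).

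Cck encodes cholecystokinin, a peptide of cortex and hippocampus that acts in brain mostly through the receptor Cckbr. Over sleep-deprived arrays Cck (1419473_a_at) had a lowest value of 10.50, a median of 10.81 and a highest of 10.98, against 10.45, 10.72 and 10.96 over control arrays. The array ranges nearly coincided, and the group mean was higher in 11 of 12 comparisons. Sleep-deprived arrays lay fully above controls in 3 of 12, against 8.18% of all probe sets and comparisons. The mean difference was 0.09 ± 0.02 log2 units (SE; adjusted p = 0.000505), with means of 10.80 in sleep-deprived and 10.71 in control groups. By time, Cck was called at ZT6 alone (0.13; adjusted p = 0.0251), with 0.13 at ZT0 (0.076), 0.07 at ZT12 (0.335) and 0.03 at ZT18 (0.992). By strain it was called in AKR/J (0.11; adjusted p = 0.0436), with 0.06 in C57BL/6J (0.402) and 0.10 in DBA/2J (0.0618). The AKR/J call was lost under 5 of 12 alternatives and when any 1 of 16 arrays was left out, and the ZT6 call was lost on the 65 arrays that did not stand apart in their spike-in controls, at a difference of 0.13 (adjusted p = 0.0614), and when any 1 of 5 arrays was left out (adjusted p up to 0.0779).

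Tac1 encodes the precursor of substance P and neurokinin A, made among others by striatal neurons of the direct pathway. On its brighter probe set (1416783_at) the sleep-deprived arrays had a lowest value of 10.14, a median of 10.23 and a highest of 10.47, against 10.01, 10.20 and 10.38 in controls. The difference was 0.06 ± 0.01 log2 units (SE, limma adjusted p = 0.00102), with means of 10.27 in sleep-deprived and 10.21 in control groups. The group mean was higher in 11 of 12 comparisons. Sleep-deprived arrays lay fully above controls in 5 of 12, against 8.18% of all probe sets and comparisons. By time Tac1 was called at ZT12 (0.11; adjusted p = 0.0059), and by strain it was called within DBA/2J mice (0.08; limma adjusted p = 0.038). The DBA/2J call was lost with a pituitary score as covariate (adjusted p = 0.0548), on DBA/2J arrays alone (0.0621) and without any 1 of 13 arrays. The second Tac1 probe set (1431883_at) had a highest value of 4.20, below all array medians (5.65 to 5.71), and a difference of 0.01 ± 0.03 (adjusted p = 0.932). Its arrays overlapped in 12 of 12 comparisons.

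Of the genes of GABAergic interneurons, Sst encodes somatostatin, which dampens the release of many transmitters and hormones. Sst (1417954_at) had a lowest value of 10.28, a median of 10.47 and a highest of 10.61 over sleep-deprived arrays, against 10.25, 10.43 and 10.60 over controls. The difference of 0.05 ± 0.02 log2 units (SE) lay just outside the threshold (adjusted p = 0.0539) and had a 95% confidence interval of 0.01 to 0.08. Over the alternatives its adjusted p ran from 0.0143 to 0.203, so that its side of the threshold was not settled. Cort (1449820_at), whose peptide cortistatin binds somatostatin receptors and favoured slow-wave sleep when given to rats, differed by 0.06 ± 0.02 (adjusted p = 0.096). Its adjusted p ran from 0.0442, with the replicate block, to 0.291 over the alternatives, and was 0.0371 without 1 AKR/J array, so that its side of the threshold was not settled either. Its largest difference by time was 0.14 at ZT12 (adjusted p = 0.0612).

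Npy encodes neuropeptide Y, a feeding and anti-convulsant peptide of interneurons and the arcuate nucleus. Its overall difference was -0.00 ± 0.02 (1419127_at; 95% confidence interval -0.05 to 0.04; adjusted p = 0.955). In DBA/2J at ZT12 the sleep-deprived pools had 10.17, 10.11 and 10.07, against 10.82, 10.24 and 10.13 in controls. The groups overlapped, and 1 control pool stood far above the other 5. This pool also had the highest control value for Sst (10.60), Pdyn (6.55) and the brighter Tac1 probe set (10.38). Among DBA/2J controls it was highest for Cck (10.80), Penk (10.86) and Cort (7.09). For Nts (7.24) and Vip (9.08) it was not. The Npy comparison in DBA/2J at ZT12 was called lower (-0.28, limma adjusted p = 0.0462), against 1.34% of all probe sets. Without this control pool the Npy difference was -0.07 (limma adjusted p = 0.803).

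The opioid precursors did not pass the test. Penk (1427038_at), which encodes proenkephalin and marks striatal neurons of the indirect pathway, differed by 0.03 ± 0.01 log2 units (adjusted p = 0.162; 0.0457 to 0.211 over the alternatives). It was higher on average in 9 of 12 comparisons and lower in 3. Pdyn (1416266_at), which encodes prodynorphin, the source of kappa receptor agonists, differed by 0.04 ± 0.03 (adjusted p = 0.326). Its differences ran from -0.22 in AKR/J at ZT18 to 0.16 in C57BL/6J at ZT0.

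The strains differed in the basal level of most of these genes. In controls, over the 4 times, the F test over the 3 strains called 9 of the 10 probe sets, all but the dim Tac1 probe set, against 32.8% of all probe sets. The call for Sst (adjusted p = 0.0399) was lost after quantile normalization (0.0706) and without any 1 of 14 arrays. Between C57BL/6J and AKR/J 3 members were called, between DBA/2J and AKR/J 6, and between DBA/2J and C57BL/6J 6, against 22.9%, 17.3% and 23.2% of all probe sets. Each of these values comes from a single probe set per gene, so a sequence difference under a probe and a difference in RNA level cannot be told apart.

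Cort showed the widest strain difference and was high in C57BL/6J. The 12 DBA/2J control arrays had a lowest value of 6.71, a median of 6.96 and a highest of 7.09, against 7.21, 7.28 and 7.51 in C57BL/6J. The 12 AKR/J control arrays had 6.80, 6.92 and 7.09. No C57BL/6J control overlapped with a control of the other strains. Among sleep-deprived arrays Cort ran from 6.80 to 7.16 in DBA/2J, from 7.16 to 7.51 in C57BL/6J and from 6.68 to 7.15 in AKR/J, so that DBA/2J met C57BL/6J at the edge. In controls the DBA/2J minus C57BL/6J difference was -0.38 ± 0.04 log2 units (SE; adjusted p = 3.09e-11), and the C57BL/6J minus AKR/J difference was 0.37 ± 0.04 (1.29-fold; adjusted p = 9.97e-11).

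Cck followed a similar strain order with smaller distances. DBA/2J controls ran from 10.45 to 10.80 (median 10.64), against 10.72 to 10.96 (median 10.84) in C57BL/6J controls, a difference of -0.21 ± 0.03 (adjusted p = 1.42e-06). C57BL/6J exceeded AKR/J, whose controls ran from 10.57 to 10.76, by 0.18 ± 0.03 (adjusted p = 3.6e-05). The array ranges of the strains overlapped. The lowest C57BL/6J control, at 10.72, lay below the highest DBA/2J control, at 10.80, and the highest AKR/J control, at 10.76. The AKR/J control range lay within that of DBA/2J. Sst was lower in DBA/2J than in C57BL/6J by a small margin (-0.09 ± 0.03; adjusted p = 0.0198), a call lost with a striatal marker score as covariate (0.0736).

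Vip, Tac1 and Pdyn were instead high in DBA/2J. Vip controls ran from 8.99 to 9.23 (median 9.11) in DBA/2J, against 8.74 to 9.01 (median 8.87) in C57BL/6J. They ran from 8.74 to 9.03 (median 8.89) in AKR/J. The DBA/2J differences were 0.22 ± 0.03 from AKR/J (adjusted p = 7.56e-10) and 0.23 ± 0.03 from C57BL/6J (adjusted p = 1.9e-10), beside 0.17 for the sleep deprivation difference of Vip within DBA/2J. Tac1 controls ran from 10.25 to 10.38 (median 10.34) in DBA/2J, against 10.01 to 10.24 (median 10.16) in C57BL/6J and 10.05 to 10.25 (median 10.14) in AKR/J. DBA/2J exceeded AKR/J by 0.19 ± 0.03 (adjusted p = 2.79e-08) and C57BL/6J by 0.19 ± 0.03 (adjusted p = 3.07e-08), whereas C57BL/6J and AKR/J differed by 0.00 ± 0.03. Pdyn, co-expressed with Tac1 in striatal neurons of the direct pathway, was higher in DBA/2J than in AKR/J by 0.27 ± 0.05 (adjusted p = 6.78e-06) and than in C57BL/6J by 0.23 ± 0.05 (adjusted p = 0.000127).

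**Figure D4:**
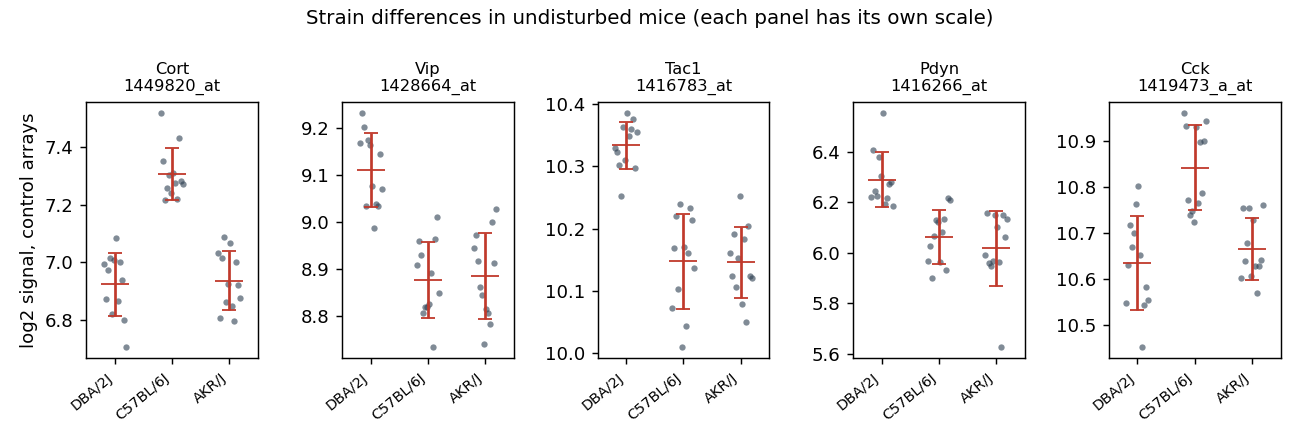
Log2 signal of Cort, Vip, Tac1, Pdyn and Cck on the 12 control arrays of each strain (points), with the mean and SD in red; each panel has its own axis. Cort and Cck are highest in C57BL/6J, with Cort there starting at 7.21 above all other controls, and Vip, Tac1 and Pdyn are highest in DBA/2J.

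Npy, Nts and Penk also differed between strains. Npy was higher in DBA/2J than in AKR/J (0.19 ± 0.04, limma adjusted p = 3e-04). Its DBA/2J controls included the ZT12 pool at 10.82. The F test over the strains, which also takes in C57BL/6J, kept its Npy call without any 1 array (adjusted p up to 0.00225). That test does not show whether the DBA/2J minus AKR/J call holds without the pool at 10.82. Nts was higher in DBA/2J than in AKR/J (0.15 ± 0.04; adjusted p = 0.00101). Penk was lower in AKR/J, with C57BL/6J 0.09 ± 0.03 above it (adjusted p = 0.0063) and DBA/2J 0.08 ± 0.03 above it (adjusted p = 0.022). The first Penk call was lost with a hypothalamic covariate (adjusted p = 0.12), the other with a striatal covariate (0.207) and with centred arrays (0.0509).

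With the 24 groups ranked by mean, at most 1 of 23 pairs of neighbouring groups per probe set had arrays that did not overlap. This count, and those of sleep-deprived groups below, were not computed over all probe sets and only describe the ranking. For Cort the 8 highest groups were the 8 of C57BL/6J. The range from the lowest to the highest group mean was 0.72 for Nts, 0.66 for Cort, 0.56 for Vip and 0.50 for Pdyn. It was 0.47 for Npy, 0.37 for Cck, 0.35 for Tac1, 0.26 for Sst and 0.22 for Penk. The highest Npy group, DBA/2J controls at ZT12 (SD 0.37), held the control pool that stood far above the others. The upper 12 groups were all sleep-deprived for Nts, 9 of them for Vip and 9 for Cck. Sleep-deprived groups made up 8 of the upper 12 for the brighter Tac1 probe set, 7 each for Penk, Pdyn, Sst, Cort and the dim Tac1 probe set, and 6 for Npy.

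Some members varied together from pool to pool inside the groups. After group means were subtracted, 45 relations among the 9 genes and a striatal marker score were computed over 71 arrays. With permutation within groups and Benjamini-Hochberg adjustment, 7 passed by both Pearson's r and Spearman's rho. The share passing among other pairs of genes was not computed. It is therefore not known whether these genes vary together more than other genes do. Sst and Npy, which many cortical interneurons co-express, had r = 0.64 and rho = 0.60 (adjusted permutation p = 0.00045 and 9e-04, with r = 0.65 in the 65 arrays). Without the 2 arrays farthest from the median of the gene named first in the pair, here Sst, r was 0.59. Arrays that stood far out in the second gene alone were not left out. The DBA/2J control pool at ZT12 with Npy at 10.82 and Sst at 10.60 was among the 71 arrays. These correlations were not computed with that pool alone left out. Cck and Sst had r = 0.52 and rho = 0.43 (adjusted permutation p = 0.00844 and 0.0229, with r = 0.44 without the 2 arrays farthest in Cck). Penk and Tac1 had r = 0.52 and rho = 0.48 (adjusted permutation p = 0.0212 and 0.0108), but with r = -0.06 among sleep-deprived and 0.77 among control arrays the relation rested on the controls. Nts and Npy had r = 0.26 and rho = 0.40 (adjusted permutation p = 0.0291 and 0.0229). For this pair r was 0.25 without the 2 arrays farthest in Nts, 0.44 among sleep-deprived and 0.16 among control arrays. Against the mean of 5 striatal markers, Cck had r = -0.48 and rho = -0.50 (adjusted permutation p = 0.00844 and 0.0108). Sst had r = -0.41 and rho = -0.44 (adjusted permutation p = 0.00844 and 0.0108) and Tac1 r = 0.48 and rho = 0.42 (adjusted permutation p = 0.0282 and 0.0309). For Tac1 against the score, r was 0.22 among sleep-deprived and 0.60 among control arrays.

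Markers of brain regions and other cells are counted here beside the 9.95% of all named genes called higher and the 12.2% called lower. The mean of 5 striatal markers ran from 8.52 to 8.77 over sleep-deprived arrays and from 8.47 to 8.79 over controls, and 1 of 5 was called higher (Pde10a, 0.08 ± 0.03). For 7 hypothalamic markers the mean ran from 6.52 to 6.84 over sleep-deprived arrays and from 6.43 to 6.87 over controls, with 1 called higher (Hcrt). Of 11 GABAergic markers 0 were higher and 2 lower (Dlx1, Reln), their mean running from 8.79 to 8.92 over sleep-deprived arrays and from 8.80 to 8.96 over controls. Of 7 cerebellar markers 2 were lower (Cbln3, -0.27 ± 0.03, and Cbln1), of 12 glial and vessel markers 3 were lower (Mag, Mog, Cldn5), and of 10 neuron markers 2 were higher (Nefm, Nefl) and 1 lower (Syt1). The cerebellar mean ran from 10.48 to 11.08 over sleep-deprived arrays and from 10.48 to 11.05 over controls. The glial and vessel mean ran from 8.61 to 8.88 over sleep-deprived arrays and from 8.70 to 8.99 over controls. The mean of 6 pituitary hormone genes varied widely, from 4.71 to 8.90 over sleep-deprived arrays and from 4.76 to 9.08 over controls. Their median difference was -0.28, with Gh at -0.41 ± 0.52, Prl at -0.39 ± 0.44 and Cga at -0.39 ± 0.39 (SE), and 0 of 6 were called (adjusted p from 0.528 to 0.708). With striatal, hypothalamic or pituitary scores as covariates, Nts, Vip, Cck and Tac1 kept their calls. The striatal and hypothalamic scores contain genes that were themselves called (Pde10a and Hcrt). These fits therefore do not separate the tissue content of a pool from its response. GABAergic, cerebellar, glial and neuron markers were not used as covariates, and their part in the results was not tested.

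Receptors of these peptides, listed with earlier results of these data known, changed little as a group. All 23 were measured; 3 rose and 2 fell, against 9.95% of all named genes called higher and 12.2% lower, and the median difference was 0.01, against -0.00 over all named genes. Sstr2, a somatostatin and cortistatin receptor, rose by 0.13 ± 0.02 log2 units (SE; adjusted p = 8.33e-06) and was higher in 12 of 12 comparisons. Sstr4 rose by 0.09 ± 0.03 (adjusted p = 0.0451), a call lost without any 1 of 42 arrays, and Cckbr, the main brain receptor of cholecystokinin, by 0.05 ± 0.02 (adjusted p = 0.0184; 0.0568 on the 65 arrays). Ntsr1, the high-affinity neurotensin receptor, fell (-0.14 ± 0.04; adjusted p = 0.00478) and was lower in 10 of 12 comparisons, although its mean level of 5.64 lay near the array medians. Oprl1, the nociceptin receptor, also fell (-0.08 ± 0.03; adjusted p = 0.0317; lost without any 1 of 7 arrays). Ntsr2 and Sort1, which also bind neurotensin, differed by 0.01 ± 0.01 and -0.01 ± 0.02, and the VIP receptors Vipr1 and Vipr2 by 0.06 ± 0.03 and 0.02 ± 0.04, without a call.

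Of 16 measured genes (17 listed) of peptide processing and dense-core vesicles, 5 rose and 1 fell, beside 9.95% of all named genes called higher and 12.2% lower, with a median of -0.00. This list, too, was made with earlier results of these data known. Vgf, a granin-family precursor, rose by 0.39 ± 0.03 (1.31-fold; adjusted p = 1.44e-14), and Pcsk1, the prohormone convertase that makes early cuts in many precursors, by 0.33 ± 0.04 (1.25-fold; adjusted p = 1.93e-10). Scg2, secretogranin II, rose by 0.19 ± 0.02 (adjusted p = 6.98e-15). These 3 were higher in 12 of 12 comparisons. Ptprn, a dense-core vesicle membrane protein, rose by 0.07 ± 0.02 (adjusted p = 0.00566) and Chgb, chromogranin B, by 0.06 ± 0.02 (adjusted p = 0.0307; 0.0758 after quantile normalization). The protease gene Ctsl fell (-0.06 ± 0.01; adjusted p = 0.000201). Cpe, the carboxypeptidase that trims cut peptides, differed by 0.00 ± 0.02 and Chga, chromogranin A, by 0.01 ± 0.02.

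Of 20 other measured neuropeptide genes (26 listed), 6 rose and 0 fell, beside the same 9.95% and 12.2% of all named genes, with a median of 0.01. As with the receptors, the list was made with earlier results of these data known. Crh, corticotropin-releasing hormone, rose by 0.53 ± 0.03 (1.44-fold; adjusted p = 2.09e-19). Nmb rose by 0.15 ± 0.03 (adjusted p = 0.000159), Pnoc, the nociceptin precursor, by 0.12 ± 0.03 (adjusted p = 0.00054), and Adcyap1, which encodes the VIP-related peptide PACAP, by 0.11 ± 0.02 (adjusted p = 5.73e-06). Cartpt rose by 0.10 ± 0.02 (adjusted p = 0.00081). Hcrt, the hypocretin precursor of wake-promoting hypothalamic neurons, rose by 0.08 ± 0.03 (adjusted p = 0.0125; 0.0838 with the hypothalamic score, which contains it, as covariate). Pomc, shared with the pituitary, differed by -0.48 ± 0.40 (adjusted p = 0.505), the widest error in the list.

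**Figure D5:**
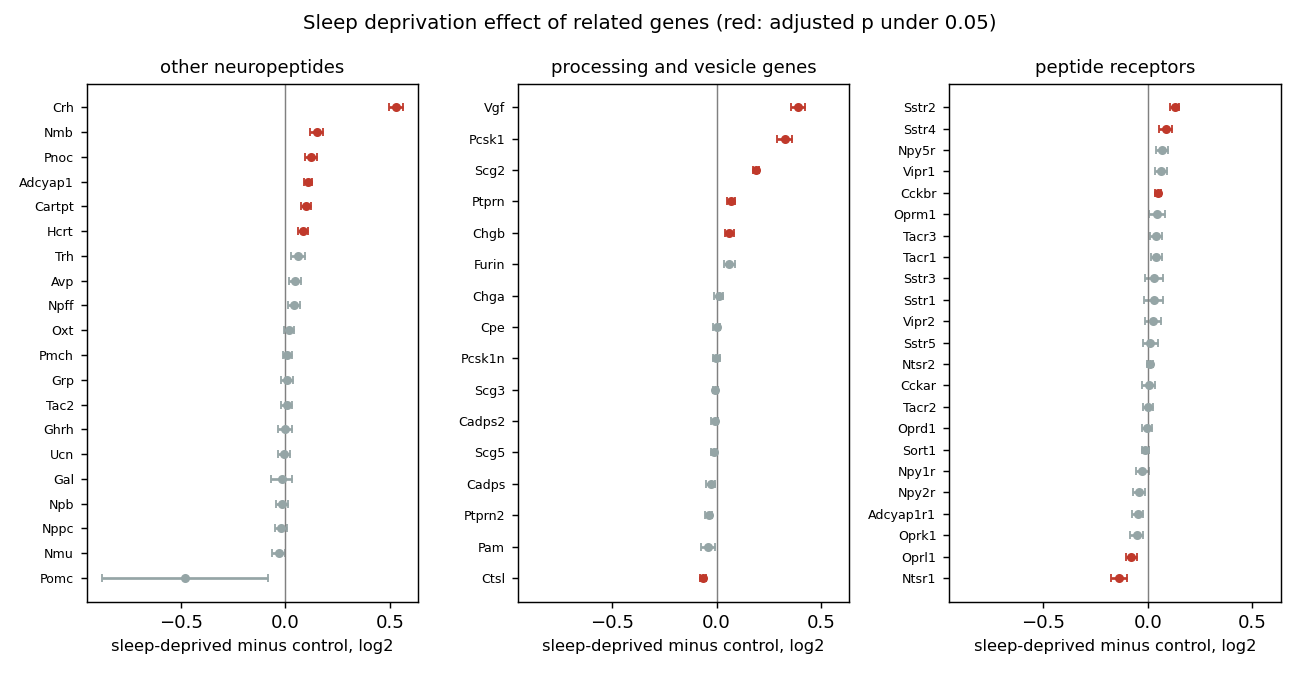
Difference in log2 signal, sleep-deprived minus control (mean of 12 comparisons ± SE), for other neuropeptide genes, genes of peptide processing and dense-core vesicles, and peptide receptors; red points passed the limma test at an adjusted p under 0.05. Crh (0.53), Vgf (0.39) and Pcsk1 (0.33) lie furthest to the right, and most receptors lie near 0.

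Among 11293 other named genes with a mean above the median of all probe sets, those whose 24 group means most resembled Nts were Crh (r = 0.90), Bdnf (r = 0.87) and Scgn (r = 0.84). The 3 most like Vip were Smarce1 (r = 0.94), Ncbp1 (r = 0.90) and Agpat5 (r = 0.90). For Cck they were Cebpzos (r = 0.90), Hcrt (r = 0.89) and S100a13 (r = 0.89), and for Sst they were Sco2 (r = 0.83), Cck itself (r = 0.82) and Clpp (r = 0.79). For Tac1 they were Hdac4 (r = 0.94), Sfi1 (r = 0.93) and Iqgap1 (r = 0.92), for Cort Sox11 (r = 0.96), Efhd2 (r = 0.95) and Prxl2c (r = 0.95), and for Pdyn Tpm3 (r = 0.90), Mmrn2 (r = 0.90) and Snx5 (r = 0.89). Npy was most like Caly, Trappc1 and Lgals1 (r = 0.84 each), and Penk most like Ifi27 (r = 0.78), Ppp1r18 (r = 0.75) and Casp6 (r = 0.73). These correlations are descriptions over group means that share arrays, strain and time, and carry no test.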

How the data were processed

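Signals were deposited by the authors as 1 log2 value for each probe set and array. RMA is the tool named by the submitters' processing notes, without a version or settings. They ran from 2.69 to 14.8, with array medians from 5.65 to 5.71, array correlations of at least 0.986 and root mean square differences of 0.145 to 0.239 between replicates. No counts or detection calls underlie them, and the number of arrays limits the precision.

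Groups came from the sample labels. Of 45101 probe sets, 64 controls were left out; 34945 of the rest had 1 platform symbol, 932 several and 9160 none, and Entrez IDs of 34741 were matched to RefSeq names. In R 4.3.3, limma 3.58.1 fitted 24 group means to the 71 arrays (files were read with the package data.table, version 1.17.8), with 47 residual degrees of freedom, two-sided tests and Benjamini-Hochberg adjustment over 45037 probe sets; called means an adjusted p under 0.05. The fit was tested on simulated data. Correlations between genes used 100000 permutations within groups.

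The members and gene lists were chosen with earlier results of these data known, and the promoter motifs after the sequences were seen. Every member probe set is described; of each other list, genes with the smallest p are named, on the probe set of highest mean per gene. Ntsr2, Sort1, Vipr1, Vipr2, Cpe, Chga and Pomc are named outside this rule, after their values were seen, as are the marker genes given. Alternatives were quantile normalization, centred array medians, a filter on dim probe sets, trended robust variances, array weights, replicate and spike-in blocks, 65 arrays without 6 that stood apart in 24 spike-in probe sets, 3 marker scores as covariates, single strains, and leaving out each array. Replicate numbers were not used to pair the samples in the main fit. Same-numbered arrays of the 2 conditions had a median correlation of 0.02 over 35 pairs, with 6 pairs over 0.1 and a highest of 0.60. Differently numbered arrays had a median of -0.006 over 70 pairs, with 8 pairs over 0.1 and a highest of 0.29. These values do not settle whether the numbers mark pairs.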

Additional observations from a re-analysis of the deposited data

Results flagged for a closer look

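The Vip response differed between times of sacrifice (time by sleep deprivation F test in limma, adjusted p = 0.0137), and its light-phase response exceeded its dark-phase response by 0.141 log2 units. Both were picked out because 2 effects under the same contrast differed by a direct test. Over the 11 alternatives the adjusted p of the F test ran from 0.00337 to 0.0215, and over 71 fits without 1 array from 0.00634 to 0.0459. The control level of Vip itself differed with time of day (F test, adjusted p = 0.00111). Since the response is the sleep-deprived minus the control level, the control course enters it directly. Control means were 9.03 at ZT0, 8.92 at ZT6, 8.88 at ZT12 and 9.00 at ZT18, and sleep-deprived means were 9.21, 9.19, 9.15 and 9.07. The share of each course in the result was not tested.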

How the results depend on the processing

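The overall increases of Nts, Vip, Cck and Tac1 kept their direction and call under all 11 alternatives and without any 1 of 71 arrays. Nts ran from 0.31 to 0.33 over the alternatives, Vip from 0.19 to 0.20, Cck from 0.07 to 0.09 and Tac1 from 0.06 to 0.07. No result changed sign while called. Among 256 values of counts of calls under these alternatives, 18 moved by more than 1.5 times. Members called between C57BL/6J and AKR/J controls became 5 in place of 3 above the median level, with array weights, with the spike-in block and with the striatal or hypothalamic score (3 to 5 without 1 array). Members called for time by sleep deprivation became 2 in place of 1, by adding Nts, above the median level, with array weights, with the replicate block and with the hypothalamic score (1 to 2 without 1 array). Members called for time of day in sleep-deprived mice became 2, by adding Vip, above the median level, with trended robust variances, with array weights, with the replicate or spike-in block and on 65 arrays (1 to 2 without 1 array). At ZT18 the count became 0 with the hypothalamic score (0 to 1 without 1 array). Time of day in controls gave 1 to 2 without 1 array. Receptors that fell became 1 in place of 2 above the median level (1 to 2 without 1 array). There Ntsr1, with a mean level of 5.64 below the cut of 5.68, was removed by the filter and not tested. Processing genes that fell became 2 in place of 1 with the spike-in block. With the replicate block, though it was not settled whether the numbers pair the samples, the mean of the 12 Nts differences was 0.33 (limma adjusted p = 3.05e-19). Single comparisons were less steady: the Nts call in C57BL/6J at ZT0 (adjusted p = 0.337) and the Vip call in AKR/J at ZT0 (0.0623) were lost on 65 arrays, and the Nts call in C57BL/6J at ZT12 with centred medians (0.0517) and the hypothalamic score (0.0543). Apart from the removal of Ntsr1 by the filter, the cause of these changes was not tested. Sensitivity to differences in dim probe sets, such as the second one for Tac1, is limited by their closeness to background.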
